A study of Mus musculus with 6 samples.

Results

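The Meis, Pbx, Pknox and Tgif genes encode homeobox transcription factors of the TALE class, and 8 of them were followed here by RNA sequencing of the mouse aorta-gonad-mesonephros (AGM) region: Meis1, Meis2, Meis3, Pbx2, Pbx3, Pknox1, Pknox2 and Tgif1. They were chosen by gene symbol among 23446 rows with a symbol, and all 8 were among the 12869 genes that averaged 1 RPKM or more and entered the tests. RPKM corrects a read count for the length of the gene model and for sequencing depth, so levels can be set side by side between genes. The AGM, the part of the embryo around the dorsal aorta where the first blood stem cells arise, was taken at E11.5 from C57BL/6 embryos. Embryos were wild type (tph2+/+), heterozygous (tph2+/-) or homozygous mutant (tph2-/-) for Tph2, which encodes tryptophan hydroxylase 2, an enzyme of serotonin synthesis. Each genotype had 2 libraries, and the sources used here do not give the number of embryos behind a library. The study asked about serotonin made in the AGM and the survival of blood stem and progenitor cells. Which part of Tph2 was altered, and in which cells the alteration acted, is not stated either.

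TALE homeodomains carry a few extra amino acids in the loop between the first and second helix. Meis and Pknox (Prep) proteins bind Pbx proteins away from DNA and on it, and Pbx proteins in turn sharpen the DNA choice of Hox proteins, so the classes act together in patterning the body axis, the limb and the blood. Meis1 is needed in the mouse embryo for megakaryocytes and blood stem cells, whereas Tgif1 works mainly as a corepressor that binds Smad proteins and the retinoid X receptor. Retinoic acid is a known inducer of Meis genes in the proximal limb bud.

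The homeodomain loop is the feature that all 8 genes share, and its coding bases are shown to place each member in its subfamily. Each sequence was read from a GENCODE coding transcript on GRCm38, runs 5' to 3' on the coding strand, and has in capitals the 9 bases that encode the loop residues. The Meis sequences were the following.
Meis1: catctaacacacCCTTACCCTtctgaagaa
Meis2: catctcacacacCCGTACCCTtcagaagaa
Meis3: catctctcgcacCCGTACCCTtcagaagag
The Pbx, Pknox and Tgif sequences were the following.
Pbx2: cacctgagcaacCCTTACCCTagtgaggag
Pbx3: cacctcagcaacCCCTACCCCagtgaagaa
Pknox1: cacatagggcatCCCTACCCAacagaggat
Pknox2: catctcatgcacCCCTATCCCactgaagat
Tgif1: cacagatacaacGCCTATCCCtcagagcaa
Over these 30 bases Meis2 was identical to Meis1 and to Meis3 at 27 positions each, and Pbx2 to Pbx3 at 25. Pknox1 and Pknox2 shared 20 of 30 positions, and Tgif1 shared 16 with each Meis gene. For Pbx2 (chr17:34594643-34594672, plus strand), Pbx3 (chr2:34204825-34204854, minus strand) and Tgif1 (chr17:70846217-70846246, minus strand) the 30 bases lay within a single exon. In the Meis and Pknox genes they crossed an exon junction. Every coding transcript of a gene that held the loop gave the same 30 bases.

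Meis1, Meis2 and Meis3 were all lower in tph2+/- than in tph2+/+, so their promoters are shown. The RefSeq promoter table of GRCm38.p6 gave 1 promoter for each, 300 bases from 250 before to 50 after the start that RefSeq gives, at chr11:19018920-19019219 (Meis1, minus strand), chr2:116064570-116064869 (Meis2, minus strand) and chr7:16175145-16175444 (Meis3, plus strand). The RefSeq starts differ from the ends of the GENCODE gene spans given with the values, and the Meis2 and Meis3 windows lie wholly inside those spans. Capitals mark each CCAAT, read on either strand, and each TATAAA.
Meis1: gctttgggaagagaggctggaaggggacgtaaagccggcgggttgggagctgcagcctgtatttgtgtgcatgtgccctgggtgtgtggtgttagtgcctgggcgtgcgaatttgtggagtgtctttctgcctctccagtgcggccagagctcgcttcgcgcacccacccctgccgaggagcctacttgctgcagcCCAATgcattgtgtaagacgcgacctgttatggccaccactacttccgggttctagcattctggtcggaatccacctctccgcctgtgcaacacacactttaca
Meis2: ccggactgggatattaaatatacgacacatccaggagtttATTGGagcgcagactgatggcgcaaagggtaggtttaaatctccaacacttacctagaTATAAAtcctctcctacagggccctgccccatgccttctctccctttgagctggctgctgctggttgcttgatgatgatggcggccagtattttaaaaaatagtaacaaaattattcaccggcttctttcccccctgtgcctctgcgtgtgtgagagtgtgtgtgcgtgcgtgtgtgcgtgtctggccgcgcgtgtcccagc
Meis3: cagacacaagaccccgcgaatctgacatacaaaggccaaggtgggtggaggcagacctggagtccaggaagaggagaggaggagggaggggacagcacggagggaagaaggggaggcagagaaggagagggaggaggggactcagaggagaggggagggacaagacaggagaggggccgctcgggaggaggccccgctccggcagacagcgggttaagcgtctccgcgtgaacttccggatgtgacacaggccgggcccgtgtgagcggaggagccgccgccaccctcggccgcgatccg
G and C made up 58.3% of the Meis1, 51.0% of the Meis2 and 66.7% of the Meis3 promoter. CCAAT was found in Meis1 at -54 from the RefSeq start and, on the other strand, in Meis2 at -210, and 37.4% of 32851 RefSeq promoters of the same length held it. TATAAA was found in Meis2 at -152 and in 13.6% of all promoters. None of the 3 Meis promoters held the Meis, Pknox and Tgif core TGACAG (19.2% of all promoters), the Pbx-Hox motif TGATTNAT (3.22%) or the GC box GGGCGG (35.7%), on either strand. The nuclear receptor motif AGGTCA (16.3%) was not found in these windows either. No motif searched is contained in another. Among the other members, 5 promoters were listed for Tgif1 and 1 for Pbx2, and TGACAG was found in 2 of the Tgif1 windows, at +6 and +39. A match is a string of letters and was not tested for binding.

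The levels differed by far more between genes than between genotypes. Pbx2, a widely expressed Pbx gene, had the highest level of the 8, with 66.1 and 65.1 RPKM in libraries 1 and 2 of the wild type, 64.9 and 60.6 in those of the heterozygotes and 58.1 and 65.2 in those of the homozygous mutants. Meis1 followed at 37.0 to 46.5 RPKM and Meis2 at 22.6 to 29.7, and neither range met that of the gene above it. Pbx3 (15.2 to 18.5 RPKM) and Tgif1 (14.45 to 17.2) overlapped each other, as did Meis3 (8.95 to 13.2) with Pknox2 (7.43 to 11.1) and Pknox2 with Pknox1 (7.82 to 8.36). Among the means of all tested genes Pbx2 lay at percentile 93.7, Meis1 at 89.1 and Meis2 at 81.6, and Pknox1, the lowest, at 44.6. Of 9 other TALE genes followed beside them, Tgif2 (38.7 to 44.4 RPKM) and Irx3 (19.8 to 31.0) were in the upper range, and Irx4, Irx6, Mkx and Pbx4 stayed under 2.7 RPKM.

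**Figure D1:**
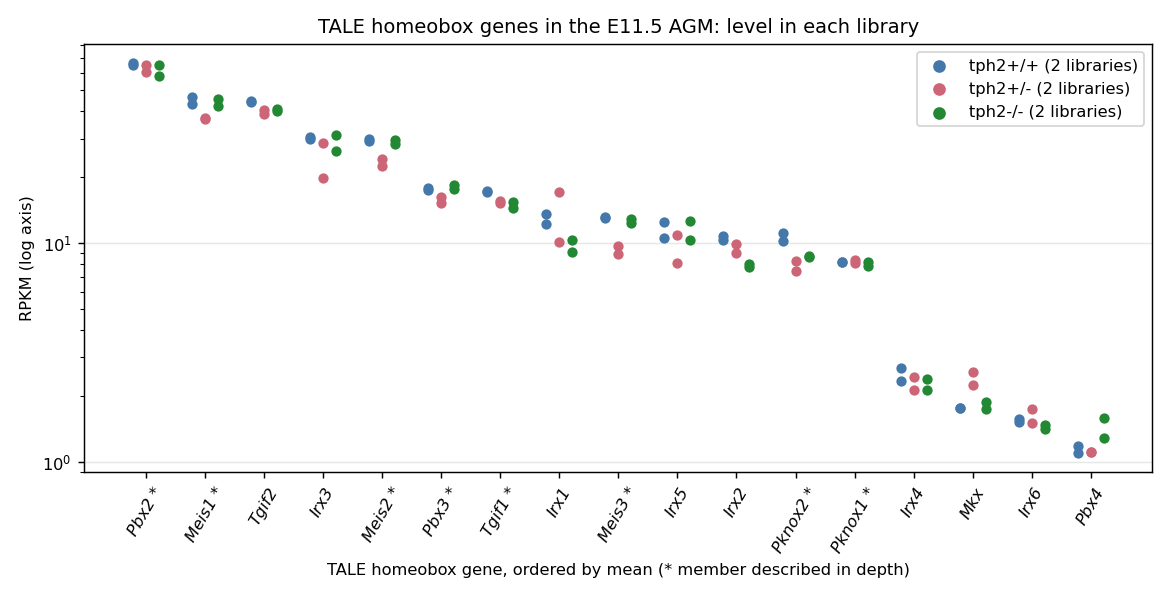
Levels of 17 TALE homeobox genes in each of the 6 libraries, in RPKM on a log axis, with genes ordered by their mean and the 8 members marked by an asterisk. Pbx2 sits highest, at 58.1 to 66.1 RPKM, and the points of one gene stay close together beside the distance from the highest to the lowest gene.

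The RPKM steps gave an estimated depth of 45986311 and 44848162 reads for the wild-type libraries, 40358579 and 40839799 for the heterozygous ones and 38760159 and 39227792 for the homozygous ones. Tph2 was at 0.0280 to 0.0764 RPKM in all 6 libraries, which is too low to check the genotype labels. Xist was at 76.3 to 101 RPKM in both tph2+/+ libraries and in tph2+/- library 1, and under 0.12 RPKM in tph2+/- library 2 and both tph2-/- libraries, where Y-linked genes were expressed. Embryo sex and genotype therefore cannot be told apart between tph2-/- and tph2+/+. Marker sums also differed between genotypes: 17 hepatoblast genes summed to 148 and 155 RPKM in the wild type, 418 and 616 in heterozygotes and 599 and 576 in homozygous mutants. The 10 endothelial genes mark the lining of blood vessels and not of the aorta alone. They summed to 143 and 145 RPKM in the wild type, 131 and 132 in heterozygotes and 134 and 136 in homozygous mutants. No gene of any marker list was at 0 in all 6.

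The tph2+/- embryos had less RNA of all 3 Meis genes and of Pknox2 than the wild type. Meis3 fell most among the 8 members, to 71.1% of its tph2+/+ level, followed by Pknox2 (73.6%), Meis2 (79.4%) and Meis1 (82.9%). Pbx2, Pbx3, Pknox1 and Tgif1 did not pass the test. By limma, 4 of 8 members were lower at an adjusted p under 0.05 and 0 were higher, beside 6.08% of all tested genes called in either direction, 1.95% lower and 4.13% higher. At an unadjusted p under 0.05 there were 6 members, all lower, beside 20.2% of all tested genes. The median log2 fold change was -0.209 over the members and 0.024 over all tested genes. In bulk tissue, fewer cells of a type and less RNA per cell cannot be told apart.

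Meis1 (ENSMUSG00000020160.18, chr11:18879817-19018985, minus strand) was at 46.5 and 43.2 RPKM in the wild type, 37.0 and 37.4 in heterozygotes and 42.4 and 45.3 in homozygous mutants. Both tph2+/- libraries lay below the other 4, and the tph2-/- and tph2+/+ values interleaved. On the log2(RPKM + 1) scale used for all differences here, that of tph2+/- from tph2+/+ was -0.26 (SE 0.0591, limma adjusted p = 0.0333). The counting error was small beside it, at 1.17% to 1.40% of a library's 5134 to 7358 reads, if the gene model is the shortest (3441 bases) that turns all 6 values into whole reads. Leaving out any one tph2+/+ or tph2+/- library ended the call, with adjusted p-values of 0.254 and 0.0784 without tph2+/+ library 1 or 2 and 0.103 and 0.0899 without tph2+/- library 1 or 2. Exons of Meis1 overlap the unconfirmed gene model Gm37818 and the antisense gene Gm16140, and reads of the latter could not be separated because the kit does not mark strand.

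Meis2 (ENSMUSG00000027210.20, chr2:115863064-116065839, minus strand) is known in the mouse for its part in cranial and cardiac neural crest development. It was at 29.7 and 29.2 RPKM in the wild type, 24.2 and 22.6 in heterozygotes and 29.5 and 28.4 in homozygous mutants. The tph2+/- pair was again the lowest, and the other genotypes overlapped. Its difference in tph2+/- against tph2+/+ was -0.32 on the log2 scale (SE 0.0566, limma adjusted p = 0.0113). That call was lost without tph2+/+ library 1 (adjusted p = 0.0997), tph2+/+ library 2 (0.0739) or tph2+/- library 2 (0.0584).

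Meis3 (ENSMUSG00000041420.18, chr7:16175090-16186504, plus strand), which in Xenopus helps to set up the hindbrain, was at 13.2 and 13.0 RPKM in the wild type, 9.69 and 8.95 in heterozygotes and 12.3 and 12.9 in homozygous mutants. The tph2+/- libraries stood well below the rest, and the tph2-/- libraries were just under the tph2+/+ ones. The log2 difference of tph2+/- from tph2+/+ was -0.45 (SE 0.0629, limma adjusted p = 0.00305), and it stayed past the threshold in all 16 alternative settings (adjusted p 0.00236 to 0.0345). It rested on 672 to 1114 reads a library, with a counting error of 3.00% to 3.86%, for a model of 1839 bases.

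Pknox2 (ENSMUSG00000035934.16, chr9:36890982-37147407, minus strand), the close relative of Pknox1, was at 11.1 and 10.2 RPKM in the wild type, 7.43 and 8.24 in heterozygotes and 8.63 and 8.70 in homozygous mutants. Here both mutant genotypes lay below the wild type, the heterozygous libraries lowest. In tph2+/- the log2 difference was -0.40 (SE 0.0709, limma adjusted p = 0.0118), and without tph2+/+ library 1 it was -0.34 (adjusted p = 0.117).

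**Figure D2:**
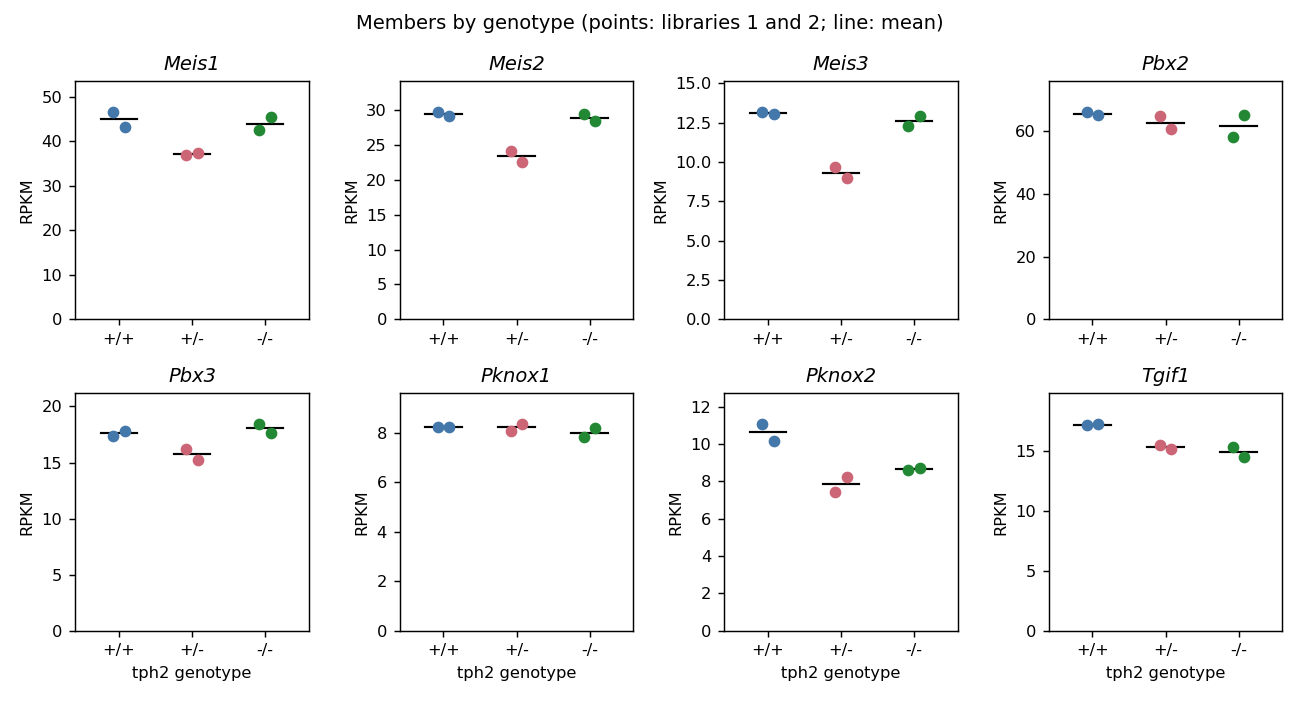
RPKM of the 8 members by genotype, with each point a library (1 and 2 from left to right), each line the mean of 2 libraries, and each axis starting at 0. In the panels of Meis1, Meis2, Meis3, Pbx3 and Pknox2 both tph2+/- points lie below the other 4, whereas Pknox1 stays between 7.82 and 8.36 RPKM.

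The remaining members showed smaller differences that did not pass. Pbx3 (ENSMUSG00000038718.15, chr2:34171457-34373142, minus strand), which newborn mice need for breathing, was at 17.4 and 17.8 RPKM in the wild type, 16.2 and 15.2 in heterozygotes and 18.5 and 17.7 in homozygous mutants. Its tph2+/- libraries were the lowest of the 6, with a log2 difference from tph2+/+ of -0.15 (SE 0.0590, limma adjusted p = 0.183). Tgif1 (ENSMUSG00000047407.17, chr17:70844205-70853546, minus strand) was at 17.1 and 17.2 RPKM in the wild type, 15.5 and 15.2 in heterozygotes and 15.3 and 14.45 in homozygous mutants. All 4 mutant libraries lay below both wild-type ones, at -0.15 in tph2+/- (SE 0.0571, adjusted p = 0.166). Pbx2 (ENSMUSG00000034673.14, chr17:34591266-34597400, plus strand) differed by -0.06 (SE 0.0663, adjusted p = 0.669), and an exon of it overlaps Gpsm3 on the same strand. Pknox1 (ENSMUSG00000006705.13, chr17:31564734-31607693, plus strand), whose partial loss in the mouse impairs blood formation, was at 8.22 and 8.21 RPKM in the wild type, 8.07 and 8.36 in heterozygotes and 7.82 and 8.18 in homozygous mutants. An exon of it overlaps the antisense gene AC166172.4. Its tph2+/- values bracketed the wild-type ones, and the log2 difference was under 0.001 in size (SE 0.0614, adjusted p = 0.999).

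For 7 of 8 members both tph2+/- libraries were below both tph2+/+ libraries and for 0 above both, beside 19.8% and 32.3% of all tested genes. For 5 of 8 (Meis1, Meis2, Meis3, Pbx3 and Pknox2) they were below all 4 other libraries, beside 6.85% of all tested genes. Split by Xist, each set of 3 libraries held 1 tph2+/- library, so the following are values with no test. Among the Xist-expressing libraries, tph2+/- library 1 was below both tph2+/+ libraries for 8 of 8 members, beside 31.2% of all tested genes, with Meis2 at 24.2 against 29.2 to 29.7 RPKM and Meis3 at 9.69 against 13.0 to 13.2. For 7 of these, all but Pknox1, that order is fixed by both tph2+/- libraries lying below both tph2+/+ ones. The gap was slight for Pbx2 (64.9 against 65.1 to 66.1 RPKM) and Pknox1 (8.07 against 8.21 to 8.22). Among the libraries without Xist, tph2+/- library 2 was at 22.6 RPKM for Meis2 and 8.95 for Meis3, against 28.4 to 29.5 and 12.3 to 12.9 in tph2-/-. It was below both tph2-/- libraries for 5 of 8 members, beside 36.1% of all tested genes. These are the 5 named above, for which that order is fixed by their having both tph2+/- libraries lowest. Pbx2 and Tgif1 lay between the tph2-/- values there and Pknox1 above them. When the fit included a term for Y-linked expression, 2 members kept a limma adjusted p under 0.05, and Meis1 (0.101) and Meis2 (0.0628) did not. Only tph2+/- held a library with Xist and one without, so that term rests almost wholly on the difference between its 2 libraries. It does not separate sex from genotype.

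Of the 9 other TALE genes followed, 0 passed the test by limma in tph2+/- against tph2+/+, beside 6.08% of all tested genes. At an unadjusted p under 0.05 there were 2, beside 20.2% of all tested genes, so that count is near the background. Tgif2, a relative of Tgif1, was at 44.4 and 44.2 RPKM in the wild type, 40.7 and 38.7 in heterozygotes and 40.1 and 40.8 in homozygous mutants. All 4 mutant libraries lay below both wild-type ones, at -0.15 in tph2+/- (SE 0.0520, adjusted p = 0.132). Mkx, a TALE factor of tendon, was higher in both tph2+/- libraries (2.24 and 2.57 RPKM) than in the other 4 (1.74 to 1.88), at 0.30 (SE 0.0926, adjusted p = 0.104), which did not pass. Both tph2+/- libraries were above all others for 9.43% of tested genes. Irx3 varied within tph2+/-, at 28.8 and 19.8 RPKM, and Irx1 ran the other way there, at 10.1 and 17.1. Both Irx genes, which pattern the neural tube, kidney and limb, therefore carried large errors in each comparison (SE 0.184 and 0.255).

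**Figure D3:**
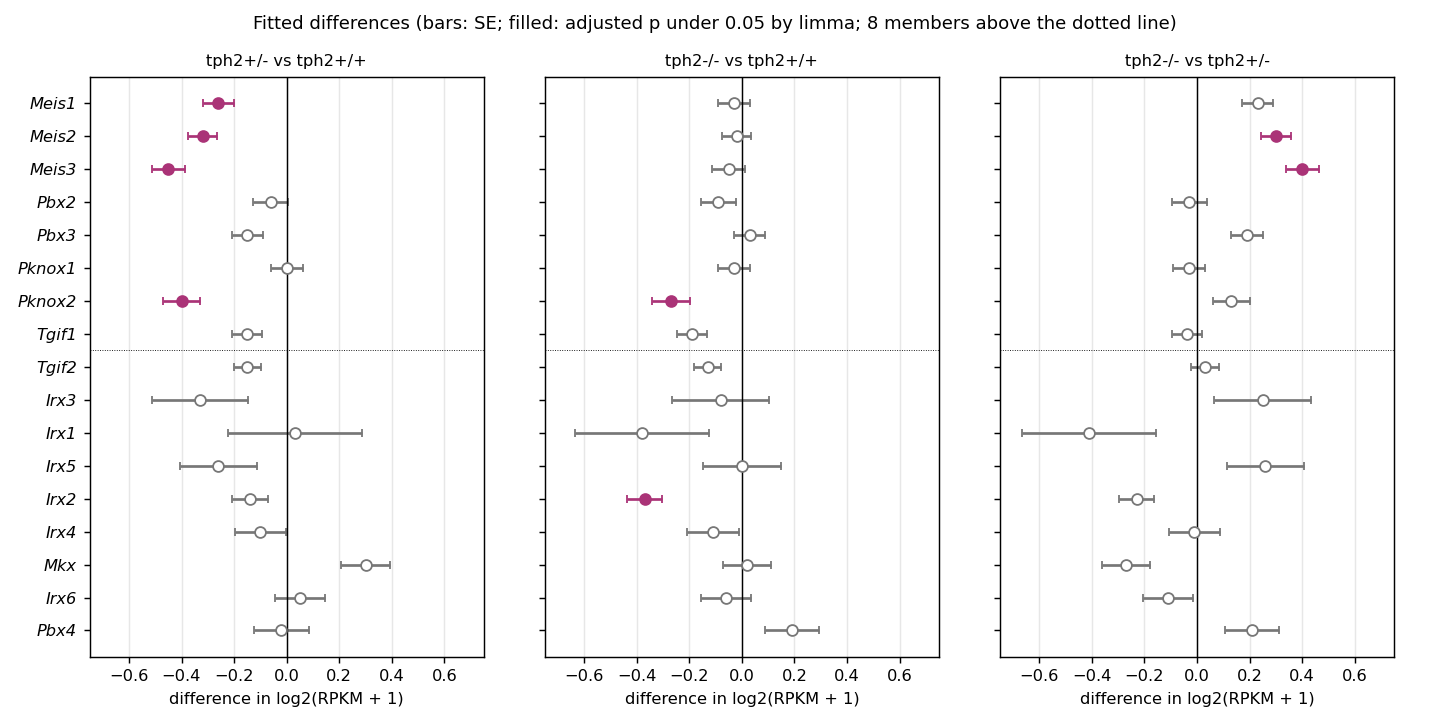
Fitted log2(RPKM + 1) differences of 17 TALE genes in the 3 comparisons, with bars of 1 SE and filled points where limma's adjusted p was under 0.05. In tph2+/- against tph2+/+ the filled points are Meis1, Meis2, Meis3 and Pknox2, all left of 0, and in tph2-/- against tph2+/- they are Meis2 and Meis3, both right of 0.

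In the homozygous mutants the 3 Meis genes stood at 96.0% to 98.3% of their wild-type levels and did not pass, and Pknox2 was lower. This comparison uses the same tph2+/+ libraries as the one before. In tph2-/- against tph2+/+, 1 of 8 members was lower and 0 were higher by limma, beside 9.64% of all tested genes called in either direction, 3.81% lower and 5.84% higher. At an unadjusted p under 0.05 there were 2 members, beside 26.8% of all tested genes, so both counts are near the background. The median difference was -0.0444 over the members and 0.0302 over all tested genes. Pknox2 fell to 81.4% of its wild-type level (-0.27, SE 0.0709, limma adjusted p = 0.0476). All tph2-/- libraries differed in sex from the tph2+/+ ones, and with a term for Y-linked expression Pknox2 was at -0.40 (adjusted p = 0.130). Meis1 differed by -0.03, Meis2 by -0.02 and Meis3 by -0.05, with adjusted p-values of 0.769, 0.812 and 0.605. Tgif1 stood at 86.7% (-0.19, SE 0.0571, adjusted p = 0.0665), and the libraries of the 2 genotypes did not overlap for 4 of 8 members, all lower, beside 24.2% of all tested genes lower and 35.7% higher. The Pknox2 call was lost without tph2+/+ library 1 (adjusted p = 0.253) or 2 (0.124), and without tph2-/- library 1 (0.185) or 2 (0.101). Of the 9 other TALE genes Irx2 passed the threshold, at 10.4 and 10.7 RPKM in tph2+/+ and 7.78 and 8.04 in tph2-/- (-0.37, SE 0.0672, adjusted p = 0.0102), and its adjusted p was 0.0534, 0.0978 and 0.0776 without tph2+/+ library 1, tph2+/+ library 2 and tph2-/- library 1. With the Y-linked term Irx2 was at -0.51 (adjusted p = 0.0522). Irx1 stood at -0.38 (SE 0.255, limma adjusted p = 0.410) and did not pass, but it did in 4 of 16 alternative settings. Among them were the fit of only these 2 genotypes (-0.38, adjusted p = 0.0166) and the Y-linked term (-1.10, adjusted p = 0.00777). The former leaves the tph2+/- libraries out of the estimate of the spread. The Y-linked term rests almost wholly on the difference between those libraries, which were at 10.1 and 17.1 RPKM for Irx1.

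Between the mutant genotypes, Meis2 and Meis3 were higher in tph2-/- than in tph2+/-. Meis2 stood at 123.8% (0.30, SE 0.0566, limma adjusted p = 0.0445) and Meis3 at 135.1% (0.40, SE 0.0629, adjusted p = 0.0168) of the tph2+/- level. These were 2 of 8 members higher and 0 lower by limma, beside 1.29% of all tested genes called in either direction, 0.746% higher and 0.544% lower. At an unadjusted p under 0.05 there were 4 members, all higher, beside 13.1% of all tested genes, and the median was 0.16 over the members and -0.00128 over all tested genes. Meis1 stood at 118.0% (0.23, SE 0.0591, adjusted p = 0.127) and Pbx3 at 114.8% (0.19, SE 0.0590, adjusted p = 0.209), and neither passed. For 5 of 8 members both tph2-/- libraries were above both tph2+/- ones and for 0 below, beside 21.4% and 21.7% of all tested genes. Both calls were lost without tph2+/- library 2 (adjusted p 0.171 for Meis2 and 0.0774 for Meis3), tph2-/- library 1 (0.269 and 0.0868) or tph2-/- library 2 (0.0968 and 0.0963), and that of Meis2 also without tph2+/+ library 1 (0.0936) or 2 (0.0934). This comparison and the one of tph2+/- against tph2+/+ share the tph2+/- libraries, so the fall in one and the rise in the other are not independent. Over all tested genes 26 (0.202%) were called lower in the first and higher in the second, and besides Meis2 and Meis3 they included Rarb, Hoxd3, Hoxd4, Hoxb9 and Hoxc9.

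Hox proteins are the main DNA-binding partners of Pbx and Meis factors. The counts below stand beside these shares of all tested genes: 1.95% lower and 4.13% higher in tph2+/- against tph2+/+. For tph2-/- against tph2+/+ the shares were 3.81% lower and 5.84% higher. Between tph2-/- and tph2+/- they were 0.544% lower and 0.746% higher. In tph2+/- against tph2+/+, 11 of 21 tested Hox genes of paralog groups 1 to 8 were lower and 0 higher (median -0.328), with Hoxc8 at -0.82 (adjusted p = 0.000188) and Hoxc6 at -0.61 (0.000473). Of 13 tested genes of groups 9 to 13, 7 were higher and 2 lower (median 0.955), led by Hoxd13 at 3.97 and Hoxd12 at 2.54, with Hoxb9 at -0.86 and Hoxc9 at -0.79 on the lower side. In tph2-/- against tph2+/+ the counts were 1 higher (Hoxb5) and 6 lower of 21 for groups 1 to 8 (median -0.0958), and 7 higher and 0 lower of 13 for groups 9 to 13 (median 0.624). Between tph2-/- and tph2+/-, 2 of 21 (Hoxd3 at 0.56 and Hoxd4 at 0.53) and 3 of 13 were higher, and 0 and 4 were lower. Hoxd4 was 1 of the 2 genes found nearest to Meis3 in a search by Pearson's r over the 6 libraries. It was at 16.7 and 17.6 RPKM in the wild type, 11.3 and 11.1 in heterozygotes and 16.1 and 17.2 in homozygous mutants.

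Retinoic acid genes, which act upstream of Meis genes in the limb, changed in both directions in the heterozygotes. Of 14 tested, 5 were lower and 1 higher in tph2+/- than in tph2+/+ (median -0.0587), beside 1.95% and 4.13% of all tested genes. The receptor gene Rarb was at 11.45 and 11.2 RPKM in the wild type, 8.41 and 7.42 in heterozygotes and 10.48 and 10.3 in homozygous mutants. Aldh1a2, which makes retinoic acid in embryonic mesoderm, was at 36.3 and 35.9 RPKM, 29.5 and 27.3, and 34.1 and 34.6 in the same order. Rarb fell by 0.47 (limma adjusted p = 0.00412) and Aldh1a2 by 0.34 (0.00840) in tph2+/-, and the tph2+/- libraries of both lay below all others. Cyp26b1, which breaks retinoic acid down, rose by 1.41 (adjusted p = 6.16e-05), from 4.18 and 4.53 RPKM in tph2+/+ to 14.7 and 11.9 in tph2+/-, and stood at 4.81 and 5.14 in tph2-/-. In tph2-/- against tph2+/+ 3 of 14 were lower and 0 higher, beside 3.81% and 5.84% of all tested genes. Among the lower ones was Stra6, a retinol transporter, at -0.40. Stra6 was also lower in tph2+/- against tph2+/+ (-0.40, limma adjusted p = 0.00276). Its mean was 16.7 RPKM in each mutant and 22.3 in tph2+/+. Against tph2+/- the tph2-/- libraries had 1 higher (Rarb, 0.36) and 1 lower (Cyp26b1, -1.26), beside 0.746% and 0.544% of all tested genes.

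The lists of protein partners and linked genes held 4 to 10 tested genes. Of 7 Pbx-binding proteins and their cofactors, 1 was lower in each mutant against tph2+/+, the zinc finger gene Zfp462 (-0.39 in tph2+/-, adjusted p = 0.00361, and -0.29 in tph2-/-, adjusted p = 0.0138), and 0 passed between the mutants. Of all tested genes 1.95% and 3.81% were lower in these 2 comparisons. Among 10 Tgif1 partners and related Smad corepressors, 1 passed, the retinoid X receptor gene Rxra in tph2-/- against tph2+/+ (-0.22, adjusted p = 0.0420). Of 4 tested genes linked to Meis1 in blood cells, the platelet factor gene Pf4 was higher in both mutants against tph2+/+ (1.30 in tph2+/- and 1.01 in tph2-/-). Trib2 was lower in tph2-/- (-0.27, limma adjusted p = 0.0475). Higher calls made up 4.13% of all tested genes in tph2+/- and 5.84% in tph2-/-. Pf4 is also on the blood marker list, of which 8 of 13 tested genes were higher in tph2+/- and 10 in tph2-/-.

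Marker sums of neighbouring tissues differed between genotypes, and their part in the Meis values was not tested. The limb bud sum was higher in tph2+/- than in both other genotypes. The 15 limb bud genes summed to 132 and 137 RPKM in the wild type, 259 and 197 in heterozygotes and 153 and 171 in homozygous mutants. Of 14 tested, 9 were higher and 0 lower in tph2+/- against tph2+/+, and 0 higher and 8 lower in tph2-/- against tph2+/-. The shares of all tested genes were 4.13% higher and 1.95% lower in the first comparison, and 0.746% and 0.544% in the second. Tbx5, a forelimb gene, was at 7.53 and 8.40 RPKM in the wild type, 12.7 and 14.7 in heterozygotes and 2.68 and 3.24 in homozygous mutants, and Hoxd13, a gene of the distal limb and the tail end, was at 0.289 and 0.234, then 18.1 and 19.5, then 1.61 and 1.30. The 12 somite and muscle genes summed to 421 and 424 RPKM in tph2+/+, 276 and 332 in tph2+/-, and at most 306 in tph2-/-, and the 12 mesonephros and gonad genes to 150.0 and 154, 133 and 131, and 117 and 126. Against tph2+/+, the count of tested genes that were lower was 7 of 12 and 6 of 10 for these lists in tph2+/-, and 8 of 12 and 6 of 10 in tph2-/-. In tph2+/- 1 gene of each list was higher, Meox2 (0.62, limma adjusted p = 0.00102) and Lhx9 (1.29, 0.000911), and in tph2-/- 0 were. Lhx9 is also on the limb bud list, and Hoxd13 is counted both there and among the Hox genes of groups 9 to 13. Of all tested genes 1.95% were lower and 4.13% higher in tph2+/-, and 3.81% and 5.84% in tph2-/-. The Meis genes stood at 96.0% to 98.3% of the wild-type level in tph2-/-, and a link of their levels with the somite or mesonephros sums was not tested. The 20 neural genes summed to 91.2 to 104 RPKM in tph2+/+ and tph2+/- and to 163 and 175 in tph2-/-, where 10 of 11 tested were higher than in tph2+/+. In tph2+/- against tph2+/+ 5 of 11 were higher and 1 lower. Hepatoblast genes (15 of 16 tested higher in each mutant against tph2+/+), gut endoderm genes (5 of 6 higher in each), gut mesenchyme genes (4 and 3 of 7 higher in tph2-/- and tph2+/-) and blood genes (10 and 8 of 13 higher) passed in 1 direction, whereas 0 of 10 endothelial genes passed in any comparison. At an unadjusted p under 0.05, 4 endothelial genes were lower in tph2+/- and 2 in tph2-/- against tph2+/+, 1 was lower in tph2-/- against tph2+/-, and 0 were higher. The shares of all tested genes past that limit, in either direction, were 20.2%, 26.8% and 13.1% in the same order. For tph2-/- in both comparisons the endothelial counts are thus near the background.

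**Figure D4:**
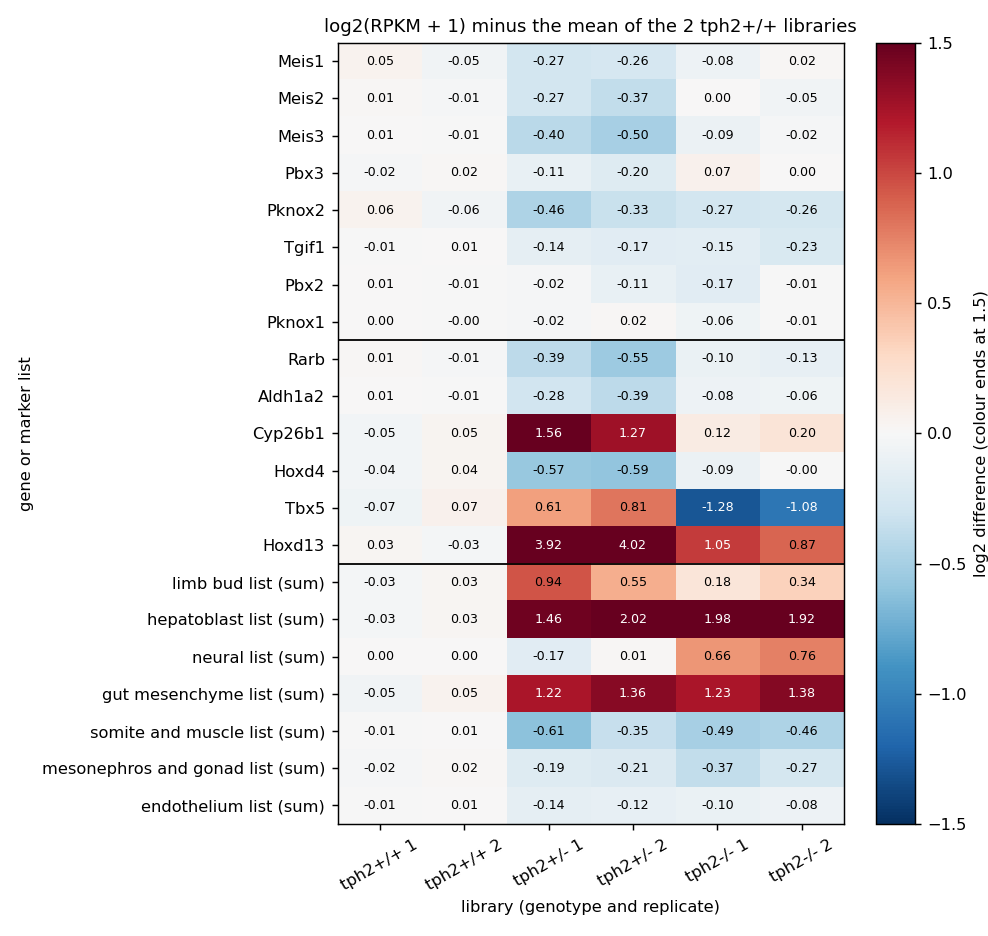
Difference of each library from the mean of the 2 tph2+/+ libraries on the log2(RPKM + 1) scale for the 8 members (top), retinoic acid, Hox and limb genes (middle) and summed marker lists (bottom), with blue lower and red higher. The tph2+/- columns are blue for the Meis genes, Rarb, Aldh1a2 and Hoxd4 and red for Cyp26b1, Hoxd13 and the limb bud sum, and the tph2-/- columns are near 0 for the Meis genes while the hepatoblast and gut mesenchyme sums stay red.

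Across the 6 libraries, on the log2(RPKM + 1) scale, Pearson's r was 0.98 between Meis2 and Meis3, 0.95 between Meis1 and Meis3 and 0.91 between Meis1 and Meis2. Pbx3 had r = 0.95 with Meis2, 0.90 with Meis3 and 0.77 with Meis1. Pknox2 had r = 0.71 to 0.80 with the Meis genes, Tgif1 0.32 to 0.41 and Pbx2 0.17 to 0.34, and Pknox1 -0.41 to -0.07. These are descriptions over 6 points that share 3 genotypes and 2 sexes. Among all tested genes, predicted models left out, the pattern most like that of Meis3 belonged to Aldh1a2 (r = 0.9925) and Hoxd4 (0.9875), and the one most like Meis2 to Rarb (0.9837) and Cdv3 (0.9833). For Meis1 the nearest were Tmc7 (0.9903) and Usp28 (0.9888), for Pknox2 Chodl (0.9935) and Lrrn1 (0.9888), and for Pbx3 Mir3103 (0.9915) and Gtf2a1 (0.9902). The nearest to Tgif1 were Slc2a4rg-ps (0.9915) and Zfp57 (0.9883), to Pbx2 Lrrc16b (0.9879) and Tpbg (0.9864), and to Pknox1 Sgsm3 (0.9882) and Trabd (0.9827). Each of these is the highest r of a search over many genes on 6 points. Such values were reached for every member, also for Pbx2 and Pknox1, which passed in no comparison. Lrrn1, a leucine-rich repeat membrane protein gene, was at 23.2 and 21.4 RPKM in the wild type, 15.6 and 17.7 in heterozygotes and 19.1 and 18.4 in homozygous mutants, so that its order of libraries was close to that of Pknox2. Mkx ran opposite to Meis3, with r = -0.99.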

How the data were processed

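Total RNA of 6 AGM libraries, 2 per genotype, was made into unstranded TruSeq libraries and sequenced as paired reads of 150 bases, per the labels' protocols. The submitters' processing notes name TopHat2 2.0.9, HTSeq 0.5.3p9 and the build GRCm38. Values were deposited by the authors as RPKM, and the gene models behind them are not given in the sources used here. Of 56826 rows, 33353 clone rows (30.2% to 30.8% of the summed RPKM) and 27 date rows were left out. The 12869 genes averaging at least 1 RPKM were fitted as log2(RPKM + 1) with limma 3.58.1 in R 4.3.3 (lmFit, eBayes with trend and robust), 6 libraries in 3 genotypes, which leaves 3 residual degrees of freedom. P-values were adjusted by Benjamini-Hochberg over all tested genes at a threshold of 0.05, and fold changes of low genes are understated on this scale. The p-values measure only the spread between libraries, which may be technical. The script was tested on simulated data. Reads per member were recovered as the whole numbers that the shortest fitting model length gives, within 8e-06 of the value or 0.005 reads. A longer model would mean more reads.

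All 8 members and 9 other TALE genes were named; some results are not reported here. For some of the other lists and comparisons up to 2 passing genes in each direction were named by size of change. For the rest only counts, sums or single genes are given, or no values. Further values for partners and markers were chosen after their values were seen (such as Aldh1a2, Tbx5, Hoxd4 and Lrrn1). The 2 genes nearest to each member by Pearson's r were named too. The members and lists were chosen with earlier results of these data known. Alternatives covered the pseudocount, filter, scaling, limma options, a term for Y-linked expression, the replicate block, the samples in the fit and leaving out each library.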

Additional observations from a re-analysis of the deposited data

How the results depend on the processing

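Of the 4 members lower in tph2+/- than in tph2+/+, Meis3 kept its call in 16 of 16 alternative settings, Pknox2 in 15, Meis2 in 12 and Meis1 in 9. In tph2-/- against tph2+/- Meis3 kept it in 13 and Meis2 in 7 of 16, and Pknox2 in tph2-/- against tph2+/+ in 9 of 16. With 2 libraries a genotype, 1 library often decides a call, and a lone library was assumed to vary like the rest. The cause of the shifts listed here was not tested.

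For tph2-/- against tph2+/+ the count of members called went from 1 to 0 with no filter, 2 with median centring (Tgif1 in addition, adjusted p = 0.0371), 0 without limma's trend and robust options, 0 with a Y-linked term, and 0 to 1 when single libraries were left out. For tph2+/- against tph2+/+ it went from 4 to 3 with no filter, 3 without the limma options and 2 with the Y-linked term. It was also lower without some of the single libraries. For tph2-/- against tph2+/- it went from 2 to 1 with no filter, 1 without the limma options, 1 with the Y-linked term, 1 when only these 2 genotypes were fitted, and 0 to 2 when single libraries were left out. Over all genes, the counts of 1241, 782 and 166 in these 3 comparisons became 795, 439 and 91 with a mean of at least 5 RPKM, by construction over fewer genes. With the Y-linked term, which rests almost wholly on the 2 tph2+/- libraries, they were 400 for tph2-/- against tph2+/+ and 264 for tph2-/- against tph2+/-. Leaving out single libraries gave 383 to 1530, 325 to 805 and 57 to 288. Of the calls 751 were higher and 490 lower in tph2-/- against tph2+/+, a split that became 548 and 667 with quantile normalization and 583 and 703 with median centring. In tph2+/- against tph2+/+ the split was 531 and 251, then 408 and 370 and 443 and 330.

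Differences near 0 changed sign in places. In tph2-/- against tph2+/+ the Y-linked term gave 0.0706 for Meis2, 0.0572 for Meis3, 0.0208 for Pbx2, 0.47 for Irx3, 0.0444 for Irx4, 0.40 for Irx5 and -0.13 for Mkx, and Mkx was -0.0744 with quantile normalization and -0.0093 with median centring. Without single libraries Meis1 ranged from -0.0827 to 0.0211, Meis2 from -0.0503 to 0.0012, Irx3 from -0.19 to 0.034, Irx5 from -0.13 to 0.12 and Mkx from -0.0106 to 0.0581. In tph2+/- against tph2+/+ Irx6 was -0.0518 with quantile normalization, and the Y-linked term gave -0.0193 for Irx6 and -0.32 for Irx1. Without single libraries Pknox1 ranged from -0.0229 to 0.0224, Irx1 from -0.33 to 0.39, Pbx4 from -0.0465 to 0.0058 and Irx6 from -0.0203 to 0.11. In tph2-/- against tph2+/- the Y-linked term gave 0.0305 for Pbx2 and 0.0707 for Irx4. Without single libraries Pbx2 ranged from -0.11 to 0.0543, Irx4 from -0.0752 to 0.0617, Tgif2 from -0.0073 to 0.0629, Irx3 from -0.0079 to 0.51 and Tgif1 from -0.0787 to 0.0003. Irx4, Irx6, Mkx and Pbx4 have no value at a mean of at least 5 RPKM.

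Replicate numbers are not stated to mark litters, and the differences between libraries 1 and 2 correlated between genotypes at 0.033, 0.17 and 0.0727, so the numbers were not taken as pairs. With the replicate block the members called stayed at 1, 4 and 2, and the counts over all genes were 1649, 908 and 220.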
